A study of Mus musculus with 28 samples.

Results

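Livers of Aag null and WT mice were compared 6 and 12 h after methyl methanesulfonate (MMS), a DNA-methylating chemical, by Affymetrix expression arrays. The members were the treated samples labelled 6 h or 12 h, which are 10 of the 28 arrays of the series. They comprised 3 Aag and 2 WT arrays at 6 h, and 2 Aag and 3 WT arrays at 12 h. All 10 carried MMS treatment, so each difference below is one between genotypes within treated liver. No untreated array entered the fits, although scaling and the choice of probe sets used all 28 arrays. The remaining arrays are 7 of untreated livers and 11 of livers taken 24 and 48 h after treatment.

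The groups are known only as far as the labels go. Aag mice are called Aag null in the study's design, and the WT mice carry no named allele. The labels state no MMS dose or route, no strain, age or sex, and not whether replicates came from separate mice. The p-values therefore measure the spread between these arrays, which may be technical. Both Aag arrays at 12 h are described as replicate 1, although their titles number them 1 and 2.

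Aag, also called Mpg, is a DNA glycosylase that starts base excision repair by cutting alkylated bases such as 3-methyladenine out of DNA. The abasic site it leaves is cut and refilled by further enzymes, and these repair intermediates can themselves be toxic when many form at once. The liver answers injury or inflammation with the acute phase response, in which hepatocytes make large amounts of secreted plasma proteins under cytokine signals such as interleukin 6. Kupffer cells are the resident macrophages of the liver and a source of such cytokines.

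The targeted gene was examined first. On the log2 scale, Mpg signal was 2.41, 2.41 and 2.41 in the Aag arrays at 6 h, 2.52 and 2.41 in those at 12 h, 2.81 and 2.38 in WT at 6 h, and 2.76, 2.61 and 2.62 in WT at 12 h. All 10 values lay below the array median of 4.10. WT replicate 2 at 6 h lay below every Aag array, so the genotypes overlapped. The mean difference within time was -0.19 (exact permutation test within time, two-sided, p = 0.04; the smallest p the design allows is 0.01). The sources used here do not say whether the targeted allele lacks the stretch that this probe set reads, so it is a weak check of the labels.

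The tissue label was borne out by bright hepatocyte transcripts in all 10 arrays. The signal of albumin (Alb) was 12.10 to 12.46 and that of Cps1, the first enzyme of the urea cycle, was 10.53 to 11.10. Array medians before scaling were 4.05 to 4.18. At 6 h, replicate 1 of WT and replicate 1 of Aag stood apart from the rest. They correlated at 0.982 with each other, whereas WT replicate 1 correlated at 0.826 with WT replicate 2 of the same time. Their hybridization controls averaged 6.42 and 6.59, against 8.22 to 9.22 in the other 8 arrays. The pair holds 1 array of each genotype. Calls are therefore also given without both arrays, an alternative chosen after seeing the data. In every value given without the pair, WT at 6 h rests on 1 array, replicate 2. That array also stood somewhat apart. Its best correlation was 0.970, with WT replicate 1 at 12 h, against a lowest of 0.974 among the other 7 arrays outside the pair. The hybridization control mean differed between genotypes by -0.18 (exact permutation test within time, two-sided, p = 0.72).

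Early after MMS, 2 plasma protease inhibitor genes were lower and an enzyme of homocysteine remethylation and a carbonic anhydrase were higher in Aag than in WT liver. In the limma fit with time as a term, 4 of 5227 genes tested were called at a Benjamini-Hochberg adjusted p under 0.05, which is 0.0765% of them. Itih4 and Serpina10 were lower in Aag than in WT (0.0383% of genes tested), and Bhmt and Car14 were higher (0.0383%). At an unadjusted p under 0.05 there were 216 genes (4.13%), of which 175 were higher in Aag (3.35%) and 41 lower (0.784%). Without the pair of arrays that stands apart, 774 were higher and 612 lower, so the higher share went from 81% to 55.8%. The values of the genotypes did not overlap at 6 h or at 12 h for 142 genes (2.72%), of which 110 were higher in Aag (2.1%) and 32 lower (0.612%). With these group sizes, 1 of the 100 arrangements of genotype labels within time separates a gene in a given direction. Separation therefore says little by itself, and for genes named for a small p it is close to given. The median difference over all genes tested was -0.01, with 2503 genes on the higher side in Aag and 2724 on the lower.

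Itih4 encodes an inter-alpha-trypsin inhibitor heavy chain protein of plasma that belongs to the acute phase response. Its log2 signal in Aag was 8.27, 8.37 and 8.18 at 6 h and 8.51 and 8.43 at 12 h. In WT it was 9.88 and 9.56 at 6 h and 9.82, 9.59 and 9.29 at 12 h. Every Aag array lay below every WT array. Itih4 was 2.41-fold lower in Aag, a log2 difference of -1.27 (SE 0.13, limma adjusted p = 0.00872). The 4 untreated Aag arrays read 8.33 to 8.97 and the 3 untreated WT arrays 8.16 to 8.66, so the early WT arrays lay above the untreated range of both genotypes and the early Aag arrays did not. That last comparison, like each one with untreated arrays below, is a description. The untreated WT arrays had hybridization controls of 10.87 to 11.65, above those of all treated arrays. Untreated Aag replicates 3 and 4, at 10.25 and 10.63, also lay above all treated arrays, while untreated Aag replicates 1 and 2 were at 8.17 and 8.09.

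Serpina10, a plasma serpin that inhibits coagulation factor X together with protein Z, gave the same order of arrays. Signal in Aag was 7.53, 7.93 and 7.55 at 6 h and 7.70 and 7.67 at 12 h, and in WT 8.83 and 8.69 at 6 h and 8.57, 8.67 and 8.44 at 12 h. The lowest WT array exceeded the highest Aag array. The log2 difference was -0.98 (SE 0.11, limma adjusted p = 0.00872), a 1.98-fold lower level in Aag. Untreated signal was 7.60 to 7.82 in Aag and 7.30 to 7.58 in WT.

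Bhmt, the enzyme that remethylates homocysteine to methionine with betaine, was higher in all 5 Aag arrays. It read 9.89, 9.71 and 9.82 in Aag at 6 h and 9.57 and 9.60 at 12 h, against 9.04 and 8.36 in WT at 6 h and 8.56, 8.29 and 8.46 at 12 h. The log2 difference was 1.13 (SE 0.13, limma adjusted p = 0.00872), or 2.19-fold. A second, dimmer Bhmt probe set, with a mean signal of 5.66, differed by -0.04, so the probe sets of this gene disagree. With the mean of the probe sets Bhmt differed by 0.55 and the call ended (limma adjusted p = 0.0579, in a range of 3.8e-06 to 0.291 over all alternatives). Untreated Bhmt signal was 10.38 to 10.67 in WT and 9.61 to 10.17 in Aag, above the early WT arrays in both genotypes.

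Car14, a membrane-bound carbonic anhydrase, read 6.86, 6.58 and 6.89 in Aag at 6 h and 6.68 and 6.69 at 12 h. WT arrays read 5.99 and 5.76 at 6 h and 5.64, 5.63 and 5.95 at 12 h. The genotypes were separate at both times, and the log2 difference was 0.93 (SE 0.11, limma adjusted p = 0.00872). Untreated values spanned 5.92 to 6.86 in WT and 5.89 to 7.10 in Aag, so the early Aag arrays lay inside the untreated range and 3 of the 5 early WT arrays lay below it.

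The calls on these 4 genes ended with the scaling. With the values as deposited and with median centring no gene passed: adjusted p was 0.118 and 0.181 for Itih4, 0.145 and 0.291 for Serpina10, 0.173 and 0.291 for Bhmt, and 0.113 and 0.120 for Car14. At an unadjusted p under 0.05 the fits then held 181 higher and 33 lower genes as deposited and 197 higher and 29 lower genes with median centring. Under these scalings the differences kept their sign but shifted. Itih4 went from -1.27 to -1.15 and -1.13, and Serpina10 from -0.98 to -0.85 and -0.83, both smaller in size. Bhmt went from 1.13 to 1.17 and 1.19, and Car14 from 0.93 to 0.94 and 0.96. Leaving out Aag replicate 1 at 12 h left 1 call and leaving out Aag replicate 2 at 12 h left 0. Leaving out Aag replicate 2 at 6 h gave 9.

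**Figure D1:**
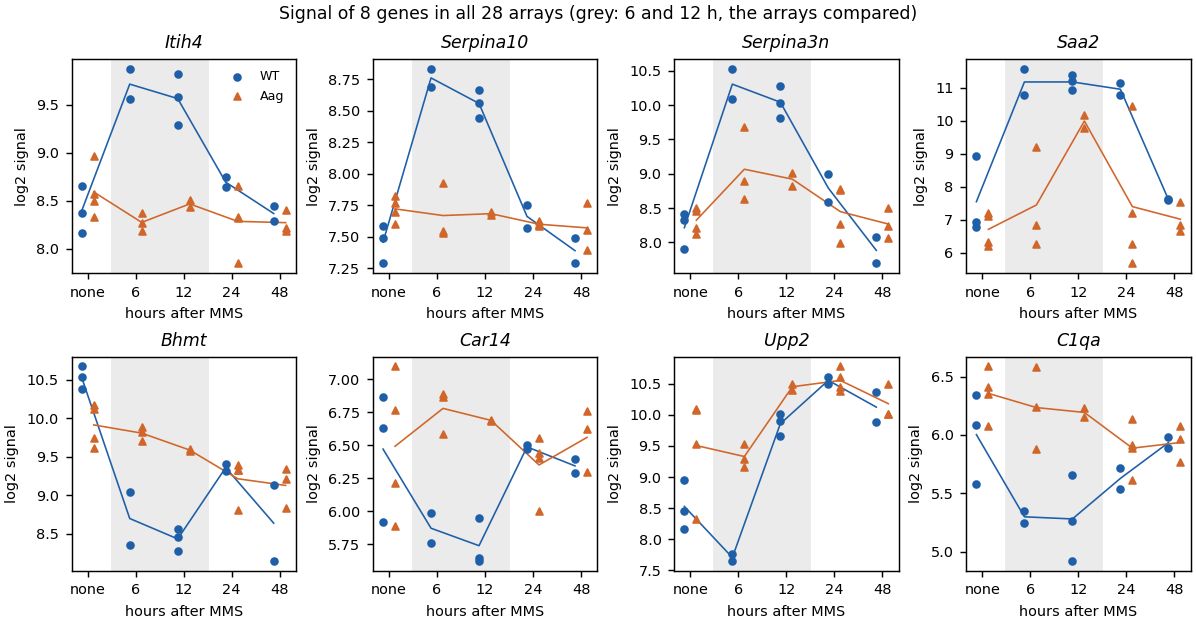
Log2 signal (vertical axes) of 8 genes in all 28 arrays against time after MMS (horizontal axes, hours; none means untreated), with WT as blue circles, Aag as orange triangles and lines through the group means. Within the grey band, which marks the 10 arrays compared, Itih4, Serpina10, Serpina3n and Saa2 lie lower and Bhmt, Car14, Upp2 and C1qa higher in every Aag array than in every WT array of the same time.

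The acute phase list, which holds plasma proteins whose synthesis in liver is known to change in inflammation, lay mostly on the lower side in Aag. Of its 24 genes on the array, 22 were tested and 1, Itih4, was called lower. At an unadjusted p under 0.05, 10 were lower and 1 was higher. The median log2 difference of the 22 was -0.46, against -0.01 over all genes tested, and 6 members were separate between genotypes on the lower side. Across all alternatives run, the list's median lay between -0.58 and -0.30. Without the pair of arrays that stands apart, 4 members were called lower. The whole set of calls was then 42 of 5227 (0.804%), with 31 higher (0.593%) and 11 lower (0.21%).

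Serpina3n, a secreted protease inhibitor, read 8.63, 9.68 and 8.89 in Aag at 6 h and 9.02 and 8.83 at 12 h. WT arrays read 10.08 and 10.53 at 6 h and 10.28, 10.04 and 9.81 at 12 h. No array of one genotype reached the other, and the difference was -1.18 (SE 0.20, limma adjusted p = 0.0654). Without the pair it was -1.17 with an adjusted p of 0.0176, in a range of 0.00164 to 0.281 over all alternatives.

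Lrg1, a leucine-rich glycoprotein of plasma that is outside the list, showed the same order. It read 9.14, 9.77 and 8.85 in Aag at 6 h, 9.37 and 9.14 in Aag at 12 h, 10.28 and 10.08 in WT at 6 h, and 10.36, 10.35 and 10.23 in WT at 12 h. The genotypes were again separate. The difference was -0.99 (SE 0.16, limma adjusted p = 0.0654).

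The fibrinogen chains, which form the clot, were lower in Aag in most arrays. The gamma chain Fgg read 8.85, 8.78 and 8.43 in Aag at 6 h and 7.999 and 8.28 at 12 h, against 9.62 and 9.23 in WT at 6 h and 9.24, 8.95 and 8.92 at 12 h. Its genotypes were separate at each time. The difference was -0.82 for Fgg (SE 0.13, limma adjusted p = 0.0654). The beta chain Fgb differed by -0.87 (SE 0.24) and the alpha chain Fga by -0.56 (SE 0.20), with overlap between genotypes. Untreated Fgg was 8.83 to 9.35, so unlike Itih4 the early WT arrays of Fgg lay close to the untreated level.

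Serum amyloid A showed the widest difference of any gene tested, with a wide spread between arrays. Saa2, a lipoprotein-bound protein that is a classic acute phase marker, read 6.85, 9.21 and 6.27 in Aag at 6 h, 10.19 and 9.80 in Aag at 12 h, 11.58 and 10.78 in WT at 6 h, and 11.40, 10.94 and 11.19 in WT at 12 h. All WT arrays were high, the Aag arrays at 12 h were nearest to them, and Aag replicate 2 at 6 h lay above the other two at that time. The difference was -2.46 (SE 0.62, limma adjusted p = 0.416). A second Saa2 probe set differed by -1.85. Serum amyloid A genes are near copies of each other and the Saa2 probe set is of the type that can bind several family members, so the signal cannot be given to 1 gene. The related Saa-ps differed by -1.23 (SE 0.21, limma adjusted p = 0.0654). Its mean signal of 3.77 lay below the array median, and it entered the test only through WT arrays.

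The scavengers and carriers of the list followed in smaller steps. Haptoglobin (Hp), which binds free haemoglobin, read 10.94, 11.26 and 10.78 in Aag at 6 h, 11.33 and 11.19 in Aag at 12 h, 11.77 and 11.53 in WT at 6 h, and 11.63, 11.77 and 11.77 in WT at 12 h. The genotypes were separate, with a difference of -0.56 (SE 0.10, limma adjusted p = 0.0654). Orosomucoid 2 (Orm2), a carrier of small molecules in plasma, differed by -1.19 (SE 0.29). Lbp, which hands bacterial lipopolysaccharide to immune cells, differed by -0.59 (SE 0.14). Apcs, serum amyloid P, differed by -1.31 (SE 0.40). None of these passed, and Orm2, Lbp and Apcs overlapped between genotypes. Transthyretin (Ttr), a carrier of thyroid hormone whose level is known to drop in the acute phase, went the other way at 0.37 (SE 0.11, limma adjusted p = 0.593), with separate genotypes.

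Promoters of the list were searched for the motifs of known acute phase regulators. In the RefSeq table (GRCm38.p6) 17 genes of the list had a promoter, and the 250 bases before the start were searched on both strands. The STAT motif TTCNNNGAA was found in 5 of 17, against 8.13% of 27025 genes. The C/EBP motif, TTGCNNAA or TTNNGCAA, was found in 10 of 17, against 10.8% of all. The genes with a C/EBP match include Cp at 0.15, Lcn2 at 0.05 and Alb at -0.02, which were not on the lower side or hardly so. The NF-kB motif, in a 10-base form, was found in 0 of 17, against 0.414%, which says only that these letters are not in this window. A match describes letters, not a bound site. The 200 bases before the start are shown 5′ to 3′ for 4 members with large differences, with STAT and C/EBP matches in capitals. Their positions are chr14:30886276-30886475 on the plus strand for Itih4, chr7:46751633-46751832 on the plus strand for Saa2, chr4:63362249-63362448 on the plus strand for Orm2 and chr3:83049864-83050063 on the minus strand for Fgb.
Itih4: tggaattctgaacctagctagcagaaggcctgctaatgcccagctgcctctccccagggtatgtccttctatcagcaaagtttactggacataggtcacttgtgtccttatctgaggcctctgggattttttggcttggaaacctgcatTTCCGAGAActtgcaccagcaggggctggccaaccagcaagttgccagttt
Saa2: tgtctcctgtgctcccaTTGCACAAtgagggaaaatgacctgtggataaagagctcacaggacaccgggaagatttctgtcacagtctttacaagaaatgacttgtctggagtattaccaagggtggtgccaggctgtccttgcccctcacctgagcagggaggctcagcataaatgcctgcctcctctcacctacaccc
Orm2: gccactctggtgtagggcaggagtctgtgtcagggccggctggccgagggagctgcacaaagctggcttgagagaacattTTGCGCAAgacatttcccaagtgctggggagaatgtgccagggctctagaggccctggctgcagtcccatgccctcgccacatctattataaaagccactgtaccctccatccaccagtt
Fgb: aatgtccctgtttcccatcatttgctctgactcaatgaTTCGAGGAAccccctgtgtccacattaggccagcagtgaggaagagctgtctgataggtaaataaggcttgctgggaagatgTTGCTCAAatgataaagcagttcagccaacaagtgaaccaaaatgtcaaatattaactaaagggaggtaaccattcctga
Itih4 holds a STAT match, Saa2 and Orm2 a C/EBP match, and Fgb 1 of each kind.

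The methionine cycle and one-carbon list lay on the higher side in Aag. These enzymes recycle methionine and supply or use its methyl groups. Of 13 members tested, 1 was called higher, Bhmt. At an unadjusted p under 0.05, 5 were higher and 0 lower, and the same number, 5, were separate between genotypes on the higher side. The median difference was 0.29. Sardh, which oxidises sarcosine in mitochondria, read 6.83, 6.68 and 6.67 in Aag at 6 h and 7.02 and 6.94 at 12 h, against 6.31 and 5.60 in WT at 6 h and 6.36, 6.57 and 6.40 at 12 h. Its genotypes were separate, at 0.65 (SE 0.14, limma adjusted p = 0.22). Dmgdh, which acts one step before Sardh, differed by 0.29 (SE 0.09) and the serine hydroxymethyltransferase Shmt1 by 0.62 (SE 0.19).

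Gamt, which makes creatine with a methyl group from S-adenosylmethionine, had its larger difference at 6 h, although no change between the times was called. It read 7.76, 7.75 and 7.82 in Aag and 6.75 and 6.73 in WT at 6 h, and 7.60 and 7.56 in Aag and 7.34, 7.44 and 7.38 in WT at 12 h. The genotypes were separate at both times but far closer at 12 h. Gamt was higher in Aag than in WT at 6 h by 1.03 (limma adjusted p = 0.0319). Its other probe set, with a mean signal of 7.30, differed by 0.01 over both times, so the probe sets disagree here too. With the mean of the probe sets the difference at 6 h was 0.51 and the call ended.

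Upp2, a liver uridine phosphorylase, was the other gene called higher at 6 h. It read 9.30, 9.16 and 9.54 in Aag and 7.65 and 7.76 in WT at 6 h, and 10.40 and 10.50 in Aag and 9.90, 10.02 and 9.66 in WT at 12 h. WT arrays at 6 h were the low ones. The difference at 6 h was 1.62 (limma adjusted p = 0.0115), and at 12 h it was 0.59 without a call. Together with Itih4 at -1.44 (limma adjusted p = 0.0319), these were the 3 calls at 6 h (0.0574%). At 12 h limma called 0 genes, with 68 at an unadjusted p under 0.05. The change of the genotype difference from 6 to 12 h also had 0 calls, with 45 at an unadjusted p under 0.05, so a difference between the times was not shown for any gene. Of the calls at 6 h, 0 stood with the values as deposited, and 0 stood without Aag replicate 1 or without Aag replicate 3 at 6 h, without either Aag array at 12 h or without WT replicate 1 at 12 h. Without WT replicate 1 at 6 h there were 17, and without WT replicate 2 at 12 h 1. At 12 h, leaving out either WT array of 6 h gave 2.

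**Figure D2:**
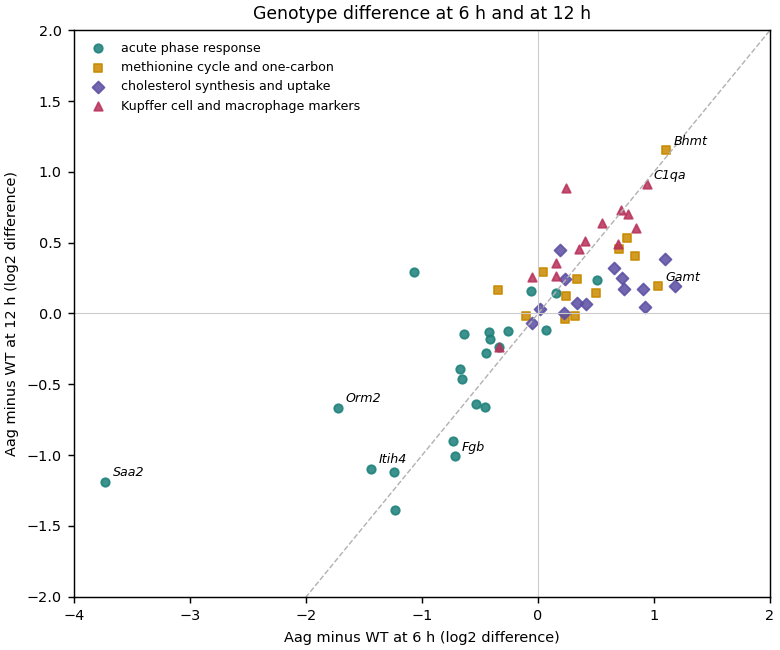
Aag minus WT log2 difference at 6 h (horizontal axis) and at 12 h (vertical axis) for the tested members of 4 gene lists, marked by colour and shape, with a dashed line of equal difference. Most acute phase genes lie in the lower left quadrant with Saa2 at -3.73 and -1.19, while one-carbon and Kupffer cell genes lie mostly in the upper right quadrant; the times share no array.

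Breakdown enzymes of amino acids were on the higher side in 14 of 14 members tested, against 2503 of 5227 over all genes, with no call. Their median was 0.21, and it lay between 0.09 and 0.33 across all alternatives. At an unadjusted p under 0.05, 4 were higher. Tat, the tyrosine transaminase, read 10.24, 10.32 and 10.50 in Aag at 6 h and 11.04 and 10.78 at 12 h, against 9.98 and 10.19 in WT at 6 h and 10.08, 10.42 and 10.26 at 12 h. Its genotypes were separate at each time, at 0.46 (SE 0.11, limma adjusted p = 0.365). Tdo2, which opens the ring of tryptophan, differed by 0.34 (SE 0.11) and Hgd, which acts on homogentisate, by 0.40 (SE 0.14).

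Markers of Kupffer cells and macrophages were higher in Aag in most arrays. Of 19 genes of that list on the array, 13 were tested, none was called, 9 were higher at an unadjusted p under 0.05 and 0 were lower. The median difference was 0.56. The log2 of the list's summed linear signal was 9.57 to 9.98 in Aag and 9.09 to 9.37 in WT, without overlap. In bulk liver, more cells of a type and more RNA per cell cannot be told apart. The scavenger receptor Marco was not above the array median in any array, and the monocyte receptor Cd14 differed by -0.29 (SE 0.17).

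The chains of complement C1q, which Kupffer cells secrete, were all on the higher side. C1qa read 5.88, 6.58 and 6.24 in Aag at 6 h, 6.23 and 6.15 in Aag at 12 h, 5.35 and 5.25 in WT at 6 h, and 4.92, 5.66 and 5.26 in WT at 12 h. Its lowest Aag array lay above its highest WT array. The difference was 0.93 for C1qa (SE 0.16, limma adjusted p = 0.0654), 0.72 for C1qb (SE 0.14, limma adjusted p = 0.146) and 0.74 for C1qc (SE 0.18, limma adjusted p = 0.365). All 3 chains were called without the pair, with limma adjusted p of 0.0197, 0.0302 and 0.0414. Over all alternatives the range was 0.00172 to 0.333 for C1qa. Ctss, a lysosomal protease of the same list, differed by 0.73 (SE 0.26), with overlap between genotypes. A second C1qb probe set, with a mean signal of 4.57, differed by -0.08, so the probe sets of C1qb disagree. With the mean of the probe sets C1qb differed by 0.32 (limma adjusted p = 0.617). Untreated C1qa was 5.58 to 6.34 in WT and 6.08 to 6.59 in Aag. The early WT arrays lay below the untreated range, except the array at 5.66, which lay inside its low end.

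Clec4f, a lectin restricted to Kupffer cells, read 6.81, 7.27 and 6.93 in Aag at 6 h and 7.05 and 7.19 at 12 h, against 6.33 and 6.57 in WT at 6 h and 6.25, 6.75 and 6.44 at 12 h. The genotypes were separate, at 0.59 (SE 0.13, limma adjusted p = 0.291). Of 10 MHC class II and dendritic cell genes tested, none was called, 2 were higher at an unadjusted p under 0.05, and the median was 0.01 with 6 on the higher and 4 on the lower side. Cd74, the invariant chain of MHC class II, differed by 0.85 (SE 0.19, limma adjusted p = 0.299) and the class II chain H2-Aa by 0.42 (SE 0.13), whereas its partner chain H2-Ab1 differed by 0.05 (SE 0.13). Ifi30, a thiol reductase of the endosome, differed by 0.54 (SE 0.10, limma adjusted p = 0.0654), with a mean signal of 3.95, below the array median. It entered the test only through the Aag arrays, so this value had to lie on the higher side. Of the neutrophil markers, S100a8, S100a9 and Ngp were not above the array median in any array, and the summed level of that list overlapped at 8.14 to 8.68 in Aag and 8.21 to 8.95 in WT.

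Red cell and hepatocyte transcripts moved by smaller amounts. The summed erythroid level was 8.81 to 8.98 in Aag and 8.49 to 8.73 in WT, without overlap, and Hba-a1 differed by 0.35 (SE 0.11). Hba-a1 alone, at 7.32 to 8.11, makes up a large part of that sum. Of 5 erythroid genes tested, 4 were on the higher side and 1 on the lower, Slc4a1 at -0.15 (SE 0.09). The summed hepatocyte level was 14.52 to 14.63 in Aag and 14.44 to 14.54 in WT. The part of these cell type levels in the results above was not tested.

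**Figure D3:**
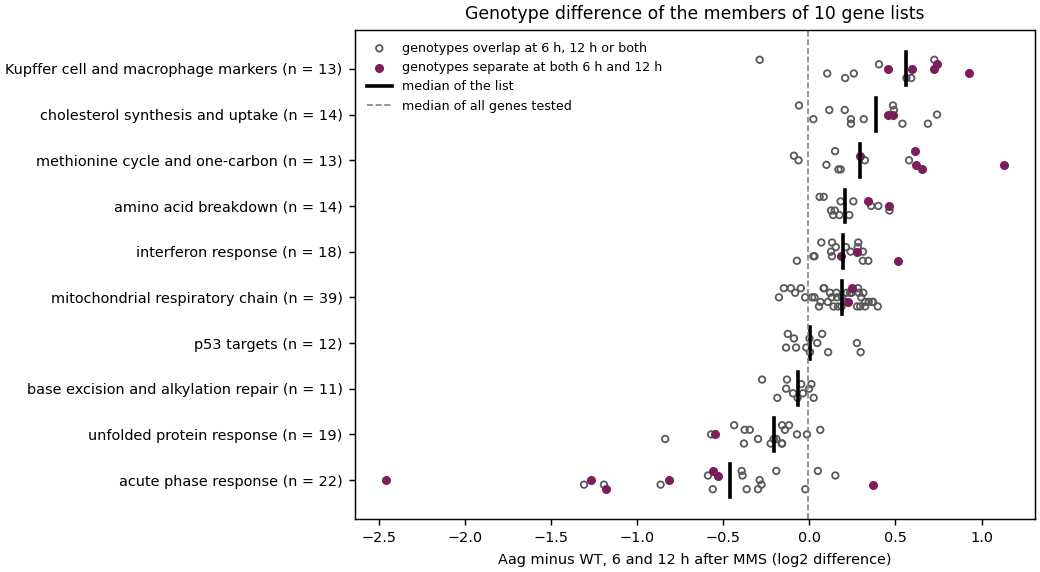
Aag minus WT log2 difference over 6 and 12 h (horizontal axis) for each tested member of 10 gene lists (rows), with filled points where the genotypes are separate at both times, a black bar at the list's median and a dashed line at the median of all genes. The acute phase row has its median at -0.46 and the Kupffer cell row at 0.56, while the repair and p53 rows lie near the dashed line.

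Cholesterol genes differed mostly on the higher side in Aag, without a call. Of 14 cholesterol genes tested, none was called and 4 were higher at an unadjusted p under 0.05. On the higher side were 13 of the 14, against 2503 of 5227 over all genes tested. The median was 0.53 at 6 h and 0.18 at 12 h. Over both times it lay between 0.21 and 0.52 across all alternatives. Idi1, an isomerase of the mevalonate pathway, read 7.69, 7.21 and 7.59 in Aag and 6.47 and 6.16 in WT at 6 h. At 12 h its genotypes overlapped, with 7.20 and 6.81 in Aag and 6.90, 6.44 and 7.10 in WT. Over both times Idi1 differed by 0.69 (SE 0.23, limma adjusted p = 0.741).

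Cyp7a1, which catalyses the rate-limiting step from cholesterol to bile acids, read 5.38, 5.30 and 5.39 in Aag and 3.38 and 3.64 in WT at 6 h. At 12 h it read 5.30 and 4.19 in Aag and 4.33, 4.41 and 3.70 in WT, and the genotypes overlapped. The difference was 1.22 over both times (SE 0.29, limma adjusted p = 0.365), the largest positive value of any gene tested. Cyp8b1, which directs the pathway to cholic acid, differed by 0.69 (SE 0.27). Of 13 bile acid genes tested these 2 alone had an unadjusted p under 0.05, and the list's median was 0.04. Cyp7b1, of the alternative pathway, went the other way at 6 h with -0.74.

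Further genes with the smallest unadjusted p on the higher side came from several roles and none passed. Pxmp2, a channel of the peroxisome membrane, differed by 0.47 (SE 0.08, limma adjusted p = 0.0654) and Pltp, which transfers phospholipids between lipoproteins, by 0.73 (SE 0.13, limma adjusted p = 0.0654). Both were separate between genotypes at each time. Ddc, which makes dopamine and serotonin by decarboxylation, differed by 1.00 (SE 0.19, limma adjusted p = 0.107), and Sult5a1, a sulfotransferase family member, by 0.85 (SE 0.18, limma adjusted p = 0.205). On the lower side, the glycolytic Ldha differed by -0.59 (SE 0.09), the securin Pttg1 by -0.66 (SE 0.11) and Gas6, a ligand of TAM receptors, by -0.51 (SE 0.09), each with a limma adjusted p of 0.0654.

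Chaperones of the endoplasmic reticulum were mostly on the lower side in Aag at 6 h, without a call. Of 19 unfolded protein response genes tested, 0 were called by limma and 2 were lower at an unadjusted p under 0.05. The median was -0.40 at 6 h and -0.02 at 12 h. Without the pair of arrays that stands apart the list's median over both times was -0.06, against -0.21 with it. Hsp90b1, a chaperone of secreted proteins, read 9.19, 8.03 and 8.58 in Aag and 9.72 and 9.29 in WT at 6 h, and 8.47 and 8.46 in Aag and 8.63, 8.66 and 8.70 in WT at 12 h. Its difference was -0.55 (SE 0.22, limma adjusted p = 0.973).

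Interferon response genes differed by a median of 0.20 over 18 tested, with no call and 5 higher at an unadjusted p under 0.05. The GTPase Igtp was separate between genotypes, at 0.52 (SE 0.15, limma adjusted p = 0.558), with a mean signal of 4.03, below the array median. Of 39 respiratory chain subunits tested, 33 differed on the higher side, against 2503 of 5227 over all genes tested, and 3 had an unadjusted p under 0.05. The median of the subunits was 0.19, and it lay between 0.06 and 0.30 across all alternatives. Of 27 coagulation and complement genes tested, 5 were higher and 1 lower at an unadjusted p under 0.05, with a median of 0.17. The 5 include C1qa and C1qb, which also stand in the Kupffer cell list.

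Genes of the pathway Aag belongs to showed no call. Of 11 base excision and alkylation repair genes tested, limma called 0, and 0 had an unadjusted p under 0.05; the median was -0.07. The scaffold Xrcc1 differed by -0.19 (SE 0.21), the abasic site nuclease Apex1 by 0.02 (SE 0.25) and Parp1, which senses strand breaks, by -0.04 (SE 0.14). The gap-filling polymerase Polb and the direct reversal protein Mgmt were not above the array median often enough to be tested. Of 12 p53 targets tested, limma called 0 and 0 had an unadjusted p under 0.05, with a median of 0.00. The cell cycle inhibitor Cdkn1a read 5.90, 6.39 and 6.37 in Aag at 6 h, 6.17 and 6.24 in Aag at 12 h, 6.07 and 6.52 in WT at 6 h, and 6.39, 6.20 and 6.25 in WT at 12 h. These values overlapped throughout, with a difference of -0.08 (SE 0.13). Mdm2, which degrades p53, differed by 0.07 (SE 0.16).

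The metallothioneins, small metal-binding proteins that respond to stress, had no call among 4 tested and 0 at an unadjusted p under 0.05 by limma. Mt1 read 10.40, 11.58 and 9.63 in Aag at 6 h, 8.92 and 9.73 in Aag at 12 h, 11.10 and 11.10 in WT at 6 h, and 10.67, 10.78 and 9.57 in WT at 12 h. The Aag arrays at 6 h lay on both sides of the WT arrays. The difference was -0.79 (SE 0.37) for Mt1 and -0.84 (SE 0.49) for Mt2.

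Genes beside Mpg on its chromosome were set apart, since a targeted allele can carry flanking DNA of the strain it was made in. Among the 40 annotated genes on each side, 16 were on the array and 10 were tested. Limma called 0 and 1 had an unadjusted p under 0.05, the haemoglobin gene Hba-a1 described above. Their median was 0.00.

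At 24 and 48 h the genotype difference was measured in 7 Aag and 4 WT arrays that the early comparison did not use. Limma called 0 of the same 5227 genes there, with 561 at an unadjusted p under 0.05 (10.7%). The late difference was -0.26 (SE 0.13) for Itih4, 0.05 (SE 0.09) for Serpina10, 0.16 (SE 0.20) for Bhmt and 0.03 (SE 0.12) for Car14. The acute phase list had a late median of -0.01 and the Kupffer cell list one of 0.10. Saa2 differed late by -2.16 (SE 0.79), with WT at 11.14 and 10.78 and Aag at 5.67, 6.26, 10.45 and 7.19 at 24 h, in replicate order. Aag replicates 1 and 2 at 24 h were marked as female-typical, as was untreated Aag replicate 3, and no WT array was. The mark rests on the signal of Cyp2b9 alone, a female-typical liver transcript, above a chosen level. Late differences may thus mix genotype with sex, which the labels do not state. Without these arrays limma still called 0 genes late, and their part in the Saa2 difference was not tested.

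The difference between early and late was itself tested over the 21 treated arrays, and 3 genes were called (0.0574%), with 368 at an unadjusted p under 0.05 (7.04%). The early minus the late difference was -1.04 for Serpina10 (limma adjusted p = 0.00435), 1.08 for Upp2 (limma adjusted p = 0.0301) and 0.58 for Tcea3, a transcription elongation factor (limma adjusted p = 0.0416). For Itih4 it was -1.02 and for Car14 0.89, each with a limma adjusted p of 0.062. No other gene named above passed this test. With the values as deposited there were 0 such calls. Leaving out WT replicate 1 at 6 h gave 1035, WT replicate 2 at 6 h 5 and WT replicate 3 at 12 h 6, and leaving out any other of the 21 arrays gave 1 to 3.

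**Figure D4:**
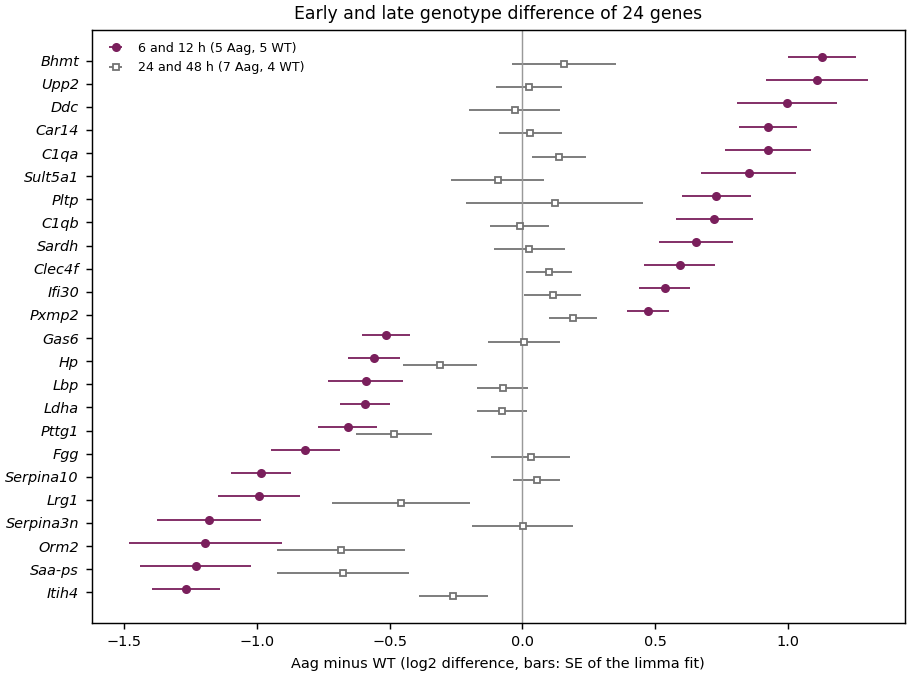
Aag minus WT log2 difference (horizontal axis) of the 12 genes named on each side (rows), early as filled circles and late as open squares, with bars of 1 SE from the limma fits. Early values reach from -1.27 for Itih4 to 1.13 for Bhmt, while each gene's late value lies closer to 0, the lowest being those of Orm2 and Saa-ps. The genes were chosen by their early values, so smaller late values are in part given.

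Precision rested on the spread between few arrays. In the fit of all 21 treated arrays, which pools the spread with that of the late arrays, the early difference had 23 calls, 17 higher and 6 lower, and 15 genes were called both there and without the pair. These 15 were the 4 genes called above together with C1qa, C1qb, C1qc, Ddc, Fgg, Ifi30, Ldha, Ly6e, Pxmp2, Saa-ps and Serpina3n. Ifi30 and Saa-ps are among the dim genes that entered the test through 1 genotype. Both fits were added after seeing the data. The fits share most arrays, so the overlap is no independent support. Over all genes named by rule, the sign of the early difference changed in 72 of 4683 pairs of gene and alternative, and in 0 of 574 for the 24 genes chosen for their small p, where a stable sign is close to given.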

How the data were processed

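Signals of 28 mouse liver arrays came from the table deposited with the series, whose values from 0.69 to 13.16 are log2 signals as the deposited values show. Summary method, background correction and normalization by the authors were not given in the sources used here. Total RNA was labelled with biotin by the manufacturer's standard procedure, per the labels' protocols.

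After 66 control probe sets were left out, 12422 probe sets were quantile normalized over the 28 arrays. Platform annotation gave 1 gene symbol for 10833 probe sets (10817 found in the RefSeq gene table by gene ID), several for 396 and none for 1193. The probe set brightest over all arrays stood for each of 8251 genes, and 5227 genes were tested, namely those whose signal exceeded the array median on 2 or more of the 10 early arrays (1564 of them with further probe sets). Differences, SEs and p-values came from limma 3.58.1 in R 4.3.3 (lmFit, eBayes with trend, genotype plus time, 7 residual degrees of freedom, Benjamini-Hochberg threshold 0.05). Single values per array used exact permutation within time (100 arrangements). The number of arrays limits the precision. The fitting code was tested on simulated data.

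Members, gene lists and tests were chosen with earlier results of these data known. Named genes were Mpg, the 12 on each side that were called or, after those, had the smallest unadjusted p, up to 4 per list and per time, and 13 set genes; Apcs, Cd14, Cp, Ctss, Cyp7b1, Fga, H2-Ab1, Lcn2, Shmt1 and Ly6e lie outside that rule and were named after their values were seen. Alternatives covered scaling, filters, probe sets, the replicate block, array weights, covariates, eBayes settings and each array left out. Figures were drawn with matplotlib 3.10.9.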

Additional observations from a re-analysis of the deposited data

Results flagged for a closer look

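The genotype difference early after MMS differed from that at 24 and 48 h for 3 genes by a test of the difference itself (limma, 21 treated arrays). For Serpina10, early minus late was -1.04. For Upp2 it was 1.08 and for Tcea3 0.58. Serpina10 read 8.44 to 8.83 in early WT arrays and 7.29 to 7.75 in late ones, and 7.53 to 7.93 in early Aag arrays. Tcea3 read 3.91 and 4.10 in WT at 6 h, below every other early array.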

How the results depend on the processing

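Early calls numbered 4, and 0 as deposited and with median centring, 112 with array weights (which did not fully converge), 19 in the fit over 28 arrays, 3 with the mean of probe sets, 70 with the hybridization controls as a covariate, 42 without the 2 arrays numbered 1 at 6 h, 23 in the fit over 21 arrays, and 0 to 9 with 1 array left out. With the replicate block there were 4. Calls at 6 h numbered 0 as deposited, with median centring, with the replicate block and with array weights, 1121 without the 2 arrays (WT at 6 h is then 1 array, assumed to vary like the other groups), and 0 to 17 with 1 array left out. Calls at 12 h were 47 with array weights, 11 without the 2 arrays and 0 to 2 with 1 array left out. For 12 h minus 6 h there was 1 call without the 2 arrays and 0 to 1 with 1 array left out. Late calls were 0 to 5 with 1 array left out, 5 without WT replicate 2 at 24 h. Early minus late had 0 calls as deposited and with median centring, 1 without the filter on dim genes, 6 with the mean of probe sets, 1 without the late arrays with female-typical transcripts, 1288 without the 2 arrays and 1 to 1035 with 1 array left out (1035 without WT replicate 1 at 6 h). The cause of these changes was not tested. The late arrays with female-typical transcripts, marked by the signal of Cyp2b9 alone, were Aag replicates 1 and 2 at 24 h. Same-numbered arrays deviated together at 6 h (0.92 and 0.78) but not at 12 h (-0.21 and -0.21), so the numbers were not taken to pair samples. At each time 1 genotype has 2 arrays, whose deviations from their mean mirror each other. The 2 values of a time are thus not separate checks. Probe sets near or below the array median, such as those of Mpg, Polb and Mgmt, limit what could be tested.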
